A study of Canis lupus familiaris with 15 samples.

Results

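The genes described here are 10 genes of the contractile apparatus of smooth muscle, ACTA2, TAGLN, MYL9, CNN1, MYH11, CSRP1, TPM1, TPM2, LMOD1 and MYH9, measured in primary osteosarcomas (OSA) of dogs. They were chosen by name, and every probeset annotated to 1 of these symbols alone was taken, which gave 27 of the 42860 probesets and 10 of the 15115 named genes on the array. Smooth muscle shortens when myosin filaments pull on actin filaments, and phosphorylation of the myosin light chain by a calcium-dependent kinase starts the cycle. The actin isoform ACTA2 and the actin-binding proteins TAGLN and CNN1 are classical marks of smooth muscle, of the pericytes and muscle cells around blood vessels, and of myofibroblasts, the contractile fibroblasts of wounds and tumor stroma. Many of these genes are known targets of the transcription factor SRF and its myocardin-family partners.

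RNA of 15 tumors, removed at amputation before any chemotherapy and kept frozen, was measured on the Affymetrix Canine 2.0 array, with 1 array for each dog. The DFI < 100 cohort held 8 dogs whose disease free interval (DFI) was under 100 days, aged 4.4 to 10.8 years, and the DFI > 300 cohort held 7 dogs with an interval over 300 days, aged 7.1 to 13.4 years. The dogs were of several breeds, 3 Greyhounds and 1 dog of mixed breed in the DFI < 100 cohort and 1 Greyhound and 4 dogs of mixed breed in the DFI > 300 cohort, and they received doxorubicin, a platinum-based drug or both after surgery. By the subtype in the study's table of dogs, the DFI < 100 tumors were 3 giant cell and 5 osteoblastic tumors, and the DFI > 300 tumors were 6 osteoblastic tumors and 1 poorly differentiated tumor, that of dog 188084.

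Each value is the log2 of the intensity that summarises a probeset on an array, so a difference of 1 is a doubling. A probeset was taken as near background when its mean did not exceed 6.79, the level under which 95% of the 64 reporter controls lay, and 33.87% of all probesets lay above this level. Among the probesets of a gene, that with the highest mean stood for the gene. Values of different probesets are not on a common scale, so levels were compared between dogs and never between genes. In bulk tumor RNA, fewer cells of a type and less RNA per cell cannot be told apart. Of the markers of skeletal muscle, 9 of 11 measured genes were near background. The list's mean over genes ran from 4.02 to 5.33 in the DFI < 100 tumors and from 4.65 to 5.95 in the DFI > 300 tumors. Dog 180223 of the DFI > 300 cohort was highest for MYH2, TNNT3, TNNC2 and MYLPF of this list, and other dogs for the rest. In that dog MYLPF (7.47) and TNNT3 (6.90) lay above the level. MYL9, also highest in that dog, had r of 0.50 and rho of 0.35 with the list's mean over the dogs. The part of muscle tissue in the contractile signal was not tested.

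Of the 10 genes, 7 lay above the background level and 3 did not. Those above it were ACTA2, TAGLN, MYL9, CSRP1, TPM1, TPM2 and MYH9. MYH11, the smooth muscle myosin heavy chain, and LMOD1, a leiomodin that starts actin filaments in smooth muscle, were near background in all 15 tumors on each of their probesets, 4 for MYH11 and 1 for LMOD1. CNN1, the actin-binding protein calponin, was above background in 2 tumors. MYOCD, the myocardin coactivator that is characteristic of smooth and cardiac muscle, averaged 3.92 and was near background too. By the same rule ACTB, a non-muscle actin, was near background with a mean of 4.40. A probeset near background therefore does not show that its transcript was absent.

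**Figure D1:**
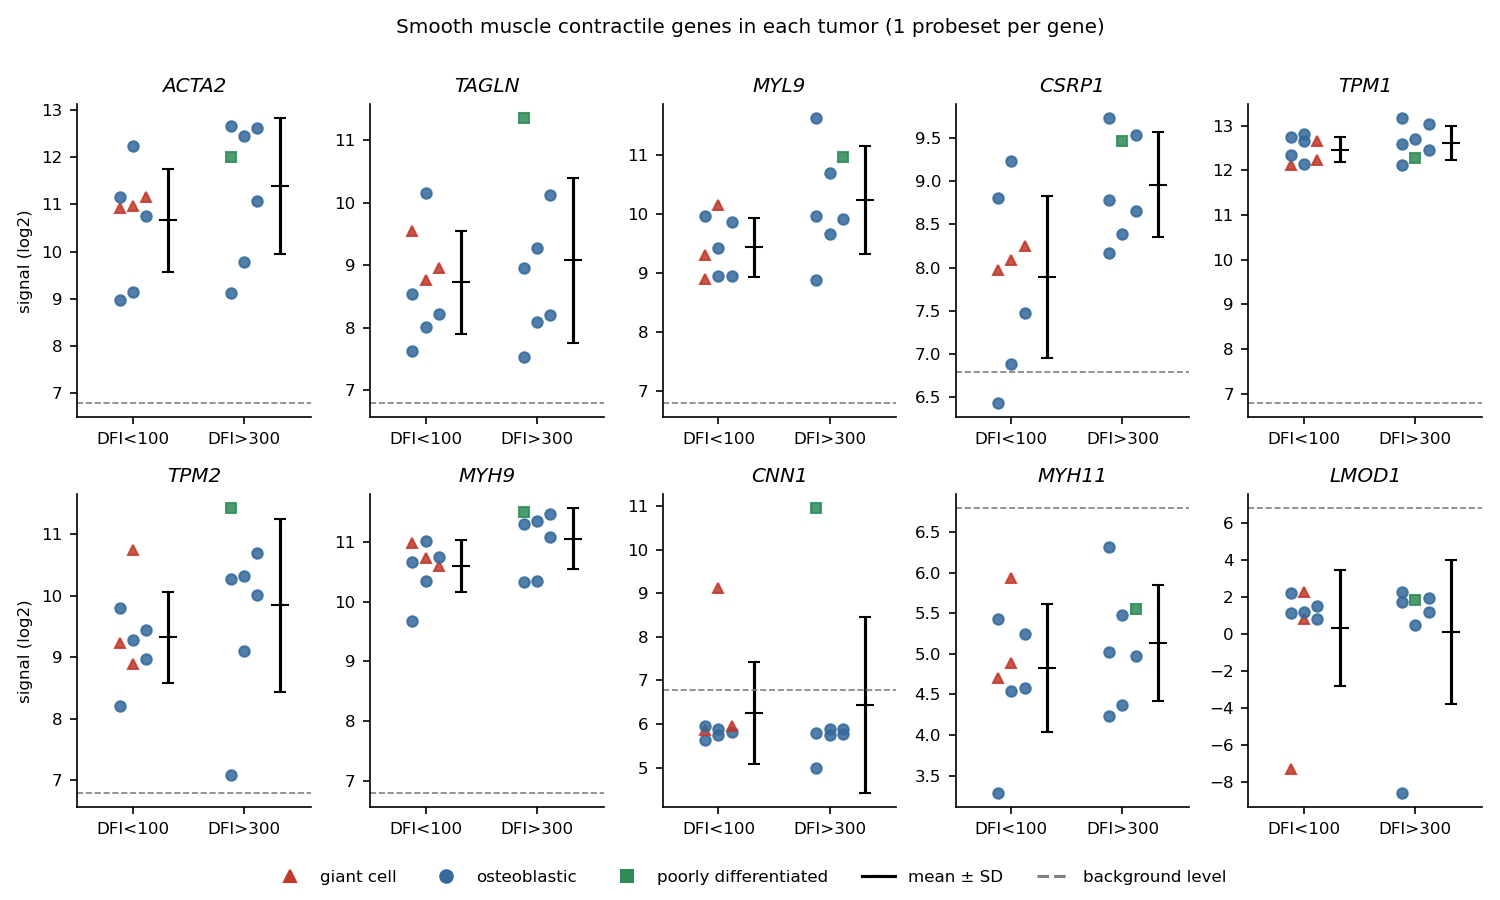
Log2 signal of the brightest probeset of each of the 10 genes (vertical axes, own scale per gene) in the 8 DFI < 100 tumors and the 7 DFI > 300 tumors, 1 point per dog, shaped by subtype, with the mean and SD beside them and the background level of 6.79 dashed. Both cohorts overlap for every gene, CNN1 is above background in 2 tumors, and MYH11 and LMOD1 are under the line in all 15.

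ACTA2, the actin of smooth muscle and myofibroblasts, varied more over tumors than most genes above background, with an SD of 1.27 that exceeded those of 97.07% of all probesets above the level. Its signal ran from 8.98 through a median of 10.94 to 12.24 in the DFI < 100 tumors, against 9.12, 12.004 and 12.65 in the DFI > 300 tumors. The cohorts overlapped, with 1 DFI < 100 tumor below every DFI > 300 tumor and 3 DFI > 300 tumors above every DFI < 100 tumor. The low values were not those of 1 cohort, since dogs 208756 and 173175 of the DFI < 100 cohort lay at 8.98 and 9.14, and dogs 193231 and 208513 of the DFI > 300 cohort at 9.12 and 9.78.

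TAGLN, transgelin, which binds and crosslinks actin filaments, ran from 7.63 through 8.65 to 10.15 in the DFI < 100 tumors, against 7.53, 8.95 and 11.35 in the DFI > 300 tumors. The poorly differentiated tumor of dog 188084 was the highest of the 15 on all 3 probesets of the gene, at 11.35, 11.59 and 10.56. The 3 probesets ran together over dogs, with r of 0.94, 0.94 and 0.996.

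CNN1, which inhibits the myosin ATPase on actin filaments, was at a floor in 13 tumors, between 4.99 and 5.95, and stood apart in the other 2. These were dog 188084, poorly differentiated and of the DFI > 300 cohort, at 10.95, and dog 153599, a giant cell tumor of the DFI < 100 cohort, at 9.13. On the second probeset of the gene, whose mean was also near background, the same 2 dogs were highest, at 8.42 and 6.78, against 1.27 to 5.35 in the other 13. The other 2 giant cell tumors, of dogs 204714 and 208911, had CNN1 at 5.87 and 5.94, so the signal was not shared by that subtype. The same 2 dogs were the 2 highest for TPM2, at 11.42 and 10.75. For TAGLN they ranked with the high tumors, at 11.35 and 9.54, but dogs 223986 and 168327 had TAGLN at 10.15 and 10.12 with CNN1 at 5.74 and 5.79. In ACTA2 these 2 tumors were unremarkable, with 12.004 in dog 188084 and 10.96 in dog 153599, where the range of all tumors was 8.98 to 12.65.

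**Figure D2:**
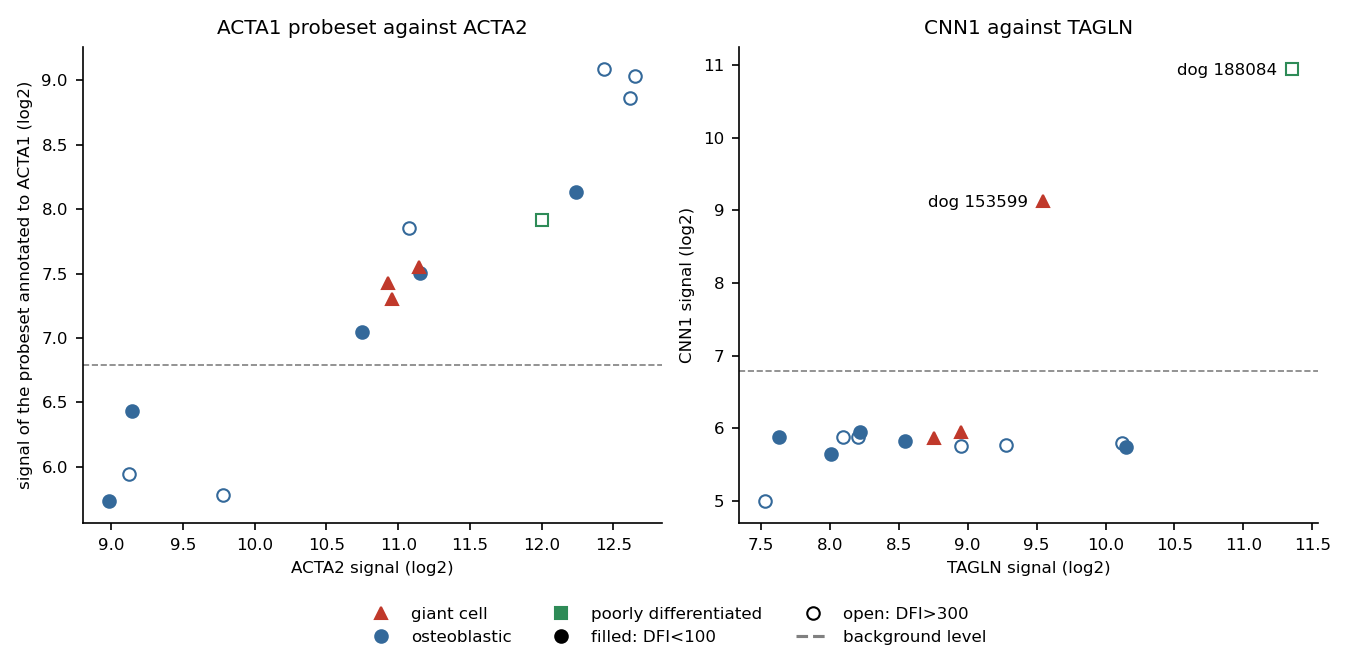
Left, log2 signal of the probeset annotated to ACTA1 against that of ACTA2, 1 point per dog, with r of 0.96 over the 15 tumors; right, CNN1 against TAGLN. Filled points are DFI < 100 tumors, open points DFI > 300 tumors, shapes give the subtype and the dashed line is the background level; only dogs 188084 and 153599 are above it for CNN1.

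MYL9, the regulatory light chain of myosin that the kinase phosphorylates, ran from 8.91 through 9.37 to 10.15 in the DFI < 100 tumors, against 8.88, 9.96 and 11.63 in the DFI > 300 tumors. Dogs 180223, 188084 and 180119, all of the DFI > 300 cohort, lay above every DFI < 100 tumor, at 11.63, 10.97 and 10.70. A further probeset shared by MYL9 and the symbol LOC491855, which was left out of the counts, followed MYL9 with r of 0.98.

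CSRP1, a LIM-domain protein of the actin cytoskeleton, ran from 6.43 through 8.03 to 9.23 in the DFI < 100 tumors, against 8.17, 8.78 and 9.73 in the DFI > 300 tumors. It was the gene with the least overlap in the lower range, since 5 of the 8 DFI < 100 tumors lay below every DFI > 300 tumor and 3 of the 7 DFI > 300 tumors above every DFI < 100 tumor. A second probeset above background followed the first over dogs with r of 0.98, and another, near background, had r of 0.28 with it.

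Both tropomyosins lie along actin filaments and govern the access of myosin. On its brightest probeset TPM1 ran from 12.12 through 12.50 to 12.81 in the DFI < 100 tumors, against 12.11, 12.60 and 13.17 in the DFI > 300 tumors, with an SD of 0.33 that exceeded those of 14.04% of probesets above the level. Its other 3 probesets above background varied more, with SDs of 0.60, 0.57 and 0.997, so how much TPM1 varied depends on the probeset. The first 2 of these ran with the brightest, with r of 0.88 and 0.63, and the last, with a mean of 7.02, did not (r of -0.04). The transcript forms that each probeset reads were not analysed here. TPM2 ran from 8.21 through 9.26 to 10.75 in the DFI < 100 tumors, against 7.08, 10.28 and 11.42 in the DFI > 300 tumors, which include both the highest and the lowest of the 15. Its other 2 probesets above background followed the brightest with r of 0.97 and 0.64.

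MYH9, the heavy chain of non-muscle myosin, which moves and divides most cell types, ran from 9.68 through 10.70 to 11.02 in the DFI < 100 tumors, against 10.34, 11.31 and 11.51 in the DFI > 300 tumors. Of the 7 DFI > 300 tumors, 5 lay above every DFI < 100 tumor, and the other 2, of dogs 193231 and 208513, lay at 10.34 and 10.35. All 8 DFI < 100 tumors were below the median of the DFI > 300 cohort. These counts hold for the brightest probeset only. The other 2 probesets above background had r of 0.72 and 0.67 with it. On them the DFI < 100 tumors reached 8.10 and 7.66, above the DFI > 300 medians of 7.77 and 7.21. Their cohort differences were -0.32 and -0.41, with a limma p of 0.392 and 0.330.

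The first comparison asked how the genes differ between tumors of dogs with early and late progression. On their brightest probesets all 7 genes above background were lower on average in the DFI < 100 tumors, with a median difference of -0.52. Of the 6448 named genes above background 47.33% were lower and their median difference was 0.02. With 1 dog left out at a time the median of the 7 genes ran from -0.98, without dog 208513, to -0.36, without dog 212759. Of their other probesets above background 1 of TPM1 was higher, by 0.11, and the rest were lower. Among these, 1 of TPM2 gave -0.02 and 2 of TAGLN gave -0.21 and -0.12. CSRP1 averaged 7.89 ± 0.94 in the DFI < 100 tumors and 8.96 ± 0.61 in the DFI > 300 tumors (SD, n = 8 and 7), a difference of -1.07 (standard error 0.40, 95% interval -1.92 to -0.23), or 2.10-fold lower. MYL9 averaged 9.44 ± 0.50 in the DFI < 100 tumors and 10.24 ± 0.92 in the DFI > 300 tumors, a difference of -0.81 (standard error 0.36, interval -1.57 to -0.04).

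Neither passed the adjustment over all probesets. In limma, whose p was adjusted by Benjamini-Hochberg over 42860 probesets, no probeset of the array had an adjusted p under 0.05 (0%), and the adjusted p of CSRP1 and MYL9 was 0.999 each. At an unadjusted p under 0.05, limma gave 1578 probesets in all and the unpaired 2-tailed test of the study's methods gave 1567. Among the 7 genes, 2 had an unadjusted p under 0.05, CSRP1 with 0.0164 and MYL9 with 0.0400, both lower in the DFI < 100 tumors, where 1.85% of all probesets were. The test of the study's methods gave 0.0232 for CSRP1 and 0.0507 for MYL9, unadjusted like the limma p-values, so MYL9 passed in limma and not in that test. With the ratio of 3 prime to 5 prime control signal as a covariate, the limma p of MYL9 was 0.0573. The second probeset of CSRP1 gave a difference of -1.06 with p of 0.0080 in limma. When each dog was left out in turn, the difference of CSRP1 ran from -1.26 to -0.86 with a limma p of at most 0.0379, while that of MYL9 ran from -1.03 to -0.58 and its p was 0.0951 without dog 180223. With age as a covariate CSRP1 gave -1.39 and MYL9 -0.67, the second with a limma p of 0.145. Without the 4 Greyhounds the median difference of the 7 genes was -0.99. The mean over the 3 probesets of CSRP1 gave -0.69.

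The other 5 genes had intervals that spanned 0. The difference was -0.72 for ACTA2 (interval -2.03 to 0.58), -0.52 for TPM2 (-1.67 to 0.62), -0.46 for MYH9 (-0.97 to 0.05), -0.35 for TAGLN (-1.47 to 0.77) and -0.16 for TPM1 (-0.54 to 0.23). The values of ACTA2 and TPM2 depended on the dogs included. Without Greyhounds ACTA2 gave -1.50 (unadjusted limma p of 0.0486, adjusted 0.991). TPM2 gave -0.98 without dog 208513 (unadjusted limma p of 0.0232, adjusted 0.992) and -0.26 without dog 188084. Among the 3 genes near background the differences were -0.31 for MYH11, -0.18 for CNN1 and 0.21 for LMOD1. Without dog 188084 the difference became 0.03 for TAGLN and 0.57 for CNN1. Over the osteoblastic tumors alone, which also leave out that dog, it was -0.19 for TAGLN and 0.13 for CNN1. The direction of both genes thus depended on the dogs included. On the 6 arrays with low signal of the spiked hybridisation controls (9.16 or less), ACTA2 gave -0.10, TAGLN 0.06 and TPM2 0.19, and on the 9 arrays with high signal (9.32 or more) ACTA2 gave -1.17, TPM2 -0.95 and TPM1 0.13. On the same 6 arrays CSRP1 gave -0.73 and MYL9 -0.76, and on the 9 arrays -1.29 and -0.81. The arrays were hybridised in 2 batches, the batch of each array is not given in the sources used here, and whether this division by control signal is that of the batches is not known. Among the lists of other cell types, 8 of 11 fibroblast and myofibroblast markers were lower in the DFI < 100 tumors (median -0.31), 7 of 11 endothelial markers (median -0.09) and 5 of 9 pericyte markers (median -0.02). The mean over the fibroblast list ran from 9.55 to 11.10 in the DFI < 100 tumors and from 9.39 to 11.87 in the DFI > 300 tumors. The part of these cells in the cohort difference was not tested.

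**Figure D3:**
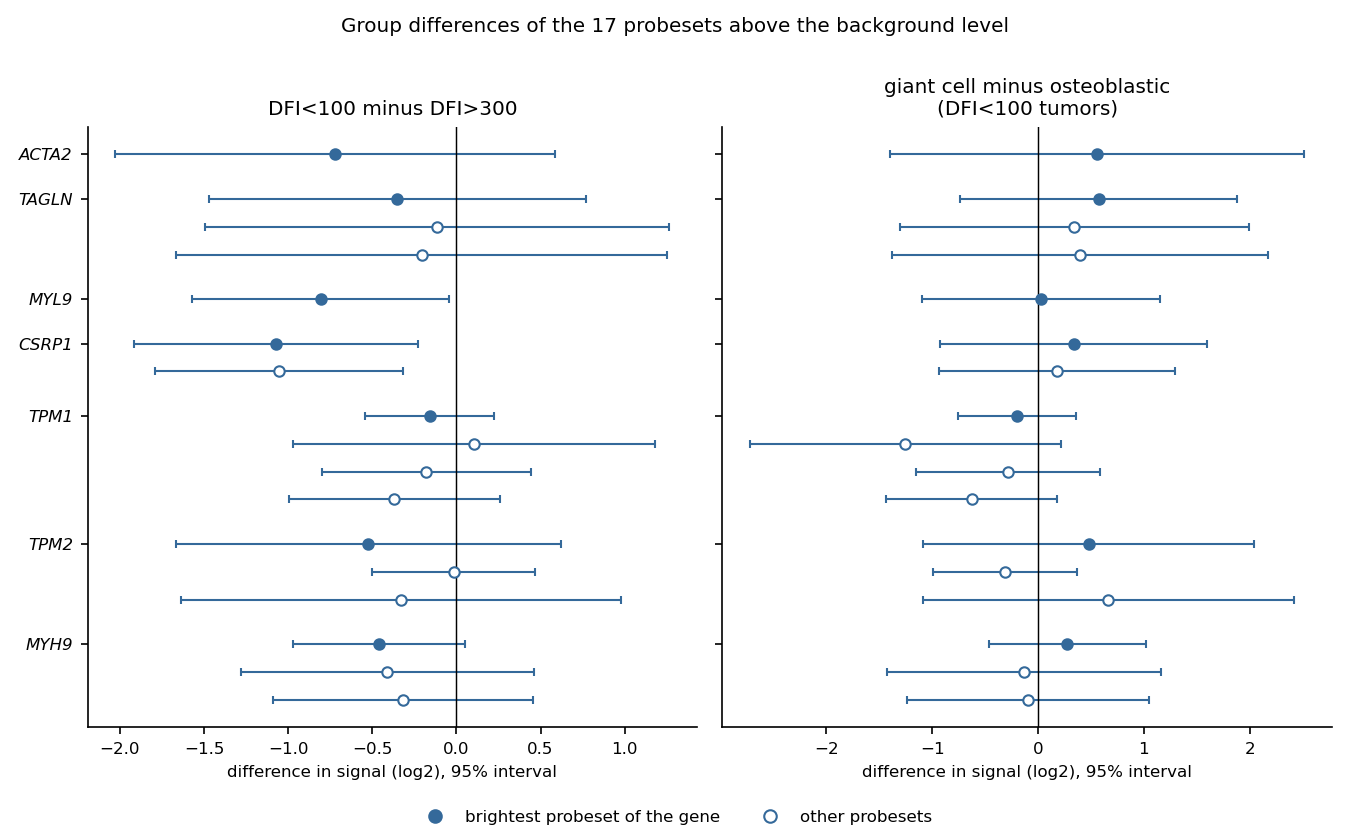
Difference in log2 signal with its 95% interval from limma for the 17 probesets above background, DFI < 100 minus DFI > 300 tumors on the left and giant cell minus osteoblastic tumors within the DFI < 100 cohort on the right; filled points are the brightest probeset of each gene and open points the others. On the left all 7 filled points are under 0 and only those of CSRP1 and MYL9 have intervals that exclude it.

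With the osteoblastic tumors alone, 5 of the DFI < 100 and 6 of the DFI > 300 cohort, the brightest probesets of all 7 genes above background were lower in the DFI < 100 tumors, and 46.26% of all named genes above background were. The median difference was -0.49, and with 1 dog left out at a time it ran from -0.94, without dog 208513, to -0.29, without dog 212759. Other probesets above background were higher, 2 of TAGLN by 0.12 and 0.22, 1 of TPM2 by 0.18 and 1 of TPM1 by 0.53. CSRP1 gave -1.11 (standard error 0.48), with a limma p of 0.0386, and was the only 1 of the 7 with an unadjusted p under 0.05 in this direction, where 2.37% of all probesets had one; fitted on these 11 arrays without the other 4, its p was 0.0571. In limma no probeset passed the adjusted p (0%), and 1988 had an unadjusted p under 0.05. MYL9 gave -0.69 (interval -1.63 to 0.24), and ACTA2 -0.83 (-2.45 to 0.79). Of the 11 endothelial markers 10 were lower as well (median -0.27), and of the 9 pericyte markers 6 were (median -0.32), and their part was not tested. These tumors are part of the cohorts compared above, so the values are no second test.

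The second comparison set the 3 giant cell tumors of the DFI < 100 cohort against its 5 osteoblastic tumors, to see whether contractile genes go with a subtype. None of the 10 genes had an unadjusted p under 0.05 in limma, where 2.79% of all probesets were higher and passed it, and 1 probeset of the array, of no gene described here, had an adjusted p under 0.05 (0.00233%). On their brightest probesets 6 of the 7 genes above background were higher in the giant cell tumors, with a median difference of 0.34. Of all named genes above background 49.71% were lower. The median of the 7 genes ran from 0.12, without dog 212759, to 0.44, without dog 223986, and it was 0.19 without dog 208756. Other probesets above background went the other way, 2 of MYH9 at -0.095 and -0.13 and 1 of TPM2 at -0.31. Those of TAGLN and CSRP1 and a further 1 of TPM2 were higher. ACTA2 was 10.93, 10.96 and 11.14 in the giant cell tumors, against 8.98, 9.14, 10.74, 11.15 and 12.24 in the osteoblastic tumors, a difference of 0.56 with an interval of -1.40 to 2.51, which was 0.19 without dog 208756 and 1.01 without dog 184844. TAGLN was 8.76, 8.95 and 9.54 in the giant cell tumors, against 7.63, 8.01, 8.22, 8.54 and 10.15 in the osteoblastic tumors. The giant cell tumors lay within the range of the osteoblastic tumors for both genes. The TPM1 probeset that did not run with the brightest gave -1.25 (interval -2.72 to 0.22). CNN1 differed by 1.17 (interval -0.06 to 2.41), and by 0.10 without dog 153599. Of the endothelial markers 11 of 11 were higher in the giant cell tumors, with a median of 1.12, and 5 of them with an unadjusted p under 0.05. The giant cell tumor of dog 208911 was the highest of all 15 tumors for KDR (11.15), ENG (9.70), EMCN (10.59) and VWF (9.34). In the giant cell tumor of dog 153599 the mean over the endothelial list was 7.24, near the DFI < 100 mean of 7.26. Osteoclast markers were higher in 5 of 7 genes, with a median of 1.28 and an unadjusted p under 0.05 in 0. The mean over the endothelial list ran from 6.47 to 8.69 over the 8 DFI < 100 tumors; the part of these cells in the values of the contractile genes was not tested.

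Over the 15 tumors the genes above background tended to run together, with TPM1 as the exception. Among the 21 pairs of the 7 genes the median Pearson r was 0.46, and 20 pairs were above 0, where the median over all pairs of the 6448 named genes above background was 0.01. In 6 of the 21 pairs (28.6%) r was above 0.5, against 5.28% of all such pairs. Without TPM1 the 15 pairs ran from 0.21 to 0.73. The 6 pairs of TPM1 ran from -0.31 with TAGLN to 0.20 with CSRP1. As pairs share genes and dogs, they are not independent of each other.

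CSRP1 and MYH9 were the closest pair, with r of 0.73 and Spearman's rho of 0.77. By a 2-sided permutation test with 100000 resamples the p was 0.00198 for r and 0.00123 for rho, and after Benjamini-Hochberg adjustment over the 45 pairs of the 10 genes it was 0.0891 and 0.0553. The relation was 0.75 without the 2 dogs farthest from the median of CSRP1, 0.64 within the DFI < 100 cohort and 0.71 within the DFI > 300 cohort. MYL9 and CSRP1 had r of 0.60 and rho of 0.475 (permutation p of 0.0176 and 0.0766, adjusted 0.229 and 0.40), and r was 0.38 without dogs 180223 and 188084. TAGLN and MYH9 had r of 0.58 and rho of 0.61 (permutation p of 0.0214 and 0.0174, adjusted 0.229 and 0.262), and r was 0.47 without dogs 188084 and 223986. None of the 45 pairs passed an adjusted p of 0.05 for r, and 7 had an unadjusted p under 0.05, 5 of them among the 21.

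The median r was lower in the DFI < 100 cohort, and the difference between the cohorts was not tested. The median r of the 21 pairs was 0.17 over the 8 DFI < 100 tumors and 0.47 over the 7 DFI > 300 tumors. ACTA2 and MYH9 had r of -0.13 within the DFI < 100 cohort and 0.82 within the DFI > 300 cohort, and MYL9 and MYH9 had -0.14 and 0.73 in the same order of cohorts. ACTA2 and MYL9 ran the other way, with 0.64 and 0.31. Over the 9 arrays with high hybridisation controls the median r was 0.65.

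**Figure D4:**
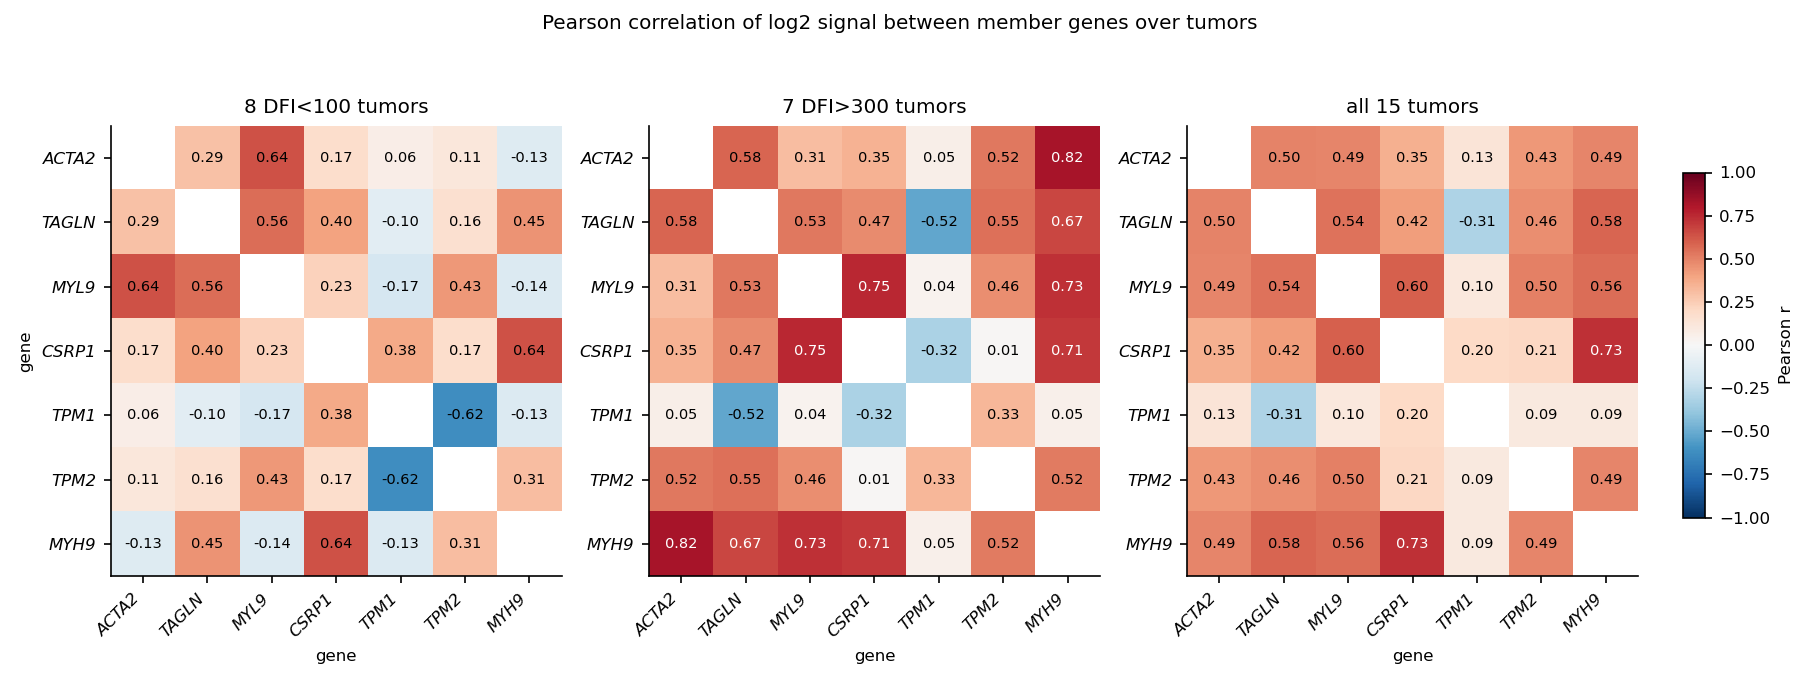
Pearson r of log2 signal for each pair of the 7 genes above background, over the 8 DFI < 100 tumors, the 7 DFI > 300 tumors and all 15 tumors, coloured from -1 to 1. CSRP1 with MYH9 is the closest pair over all tumors at 0.73, the row of TPM1 is pale in that panel, and ACTA2 with MYH9 is -0.13 in the DFI < 100 panel and 0.82 in the DFI > 300 panel.

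No pooled correlation is given for CNN1 or LMOD1, whose dogs fell into separate clusters. For LMOD1 these were 2 tumors, of dog 204714 in the DFI < 100 cohort and dog 190030 in the DFI > 300 cohort, at -7.29 and -8.59, and 13 tumors between 0.48 and 2.28, all far under the background level. MYH11, also near background, had r between -0.29 and 0.45 with the 7 genes, and its own 4 probesets had r between -0.47 and 0.47 with each other.

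By dog, the mean over the 7 genes of the distance from each gene's mean in units of its SD ran from -0.97 to 0.41 in the DFI < 100 tumors and from -0.99 to 1.14 in the DFI > 300 tumors. The 5 highest dogs, 188084, 180119, 180223, 168327 and 190030, were all of the DFI > 300 cohort, and the lowest of all, dog 208513, was also of that cohort. Dog 188084 was among the 3 highest tumors for 5 of the 7 genes, and below the mean for TPM1. Dog 180119 was above the mean for 7 of 7 genes, and dog 208756 of the DFI < 100 cohort for 0 of 7.

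**Figure D5:**
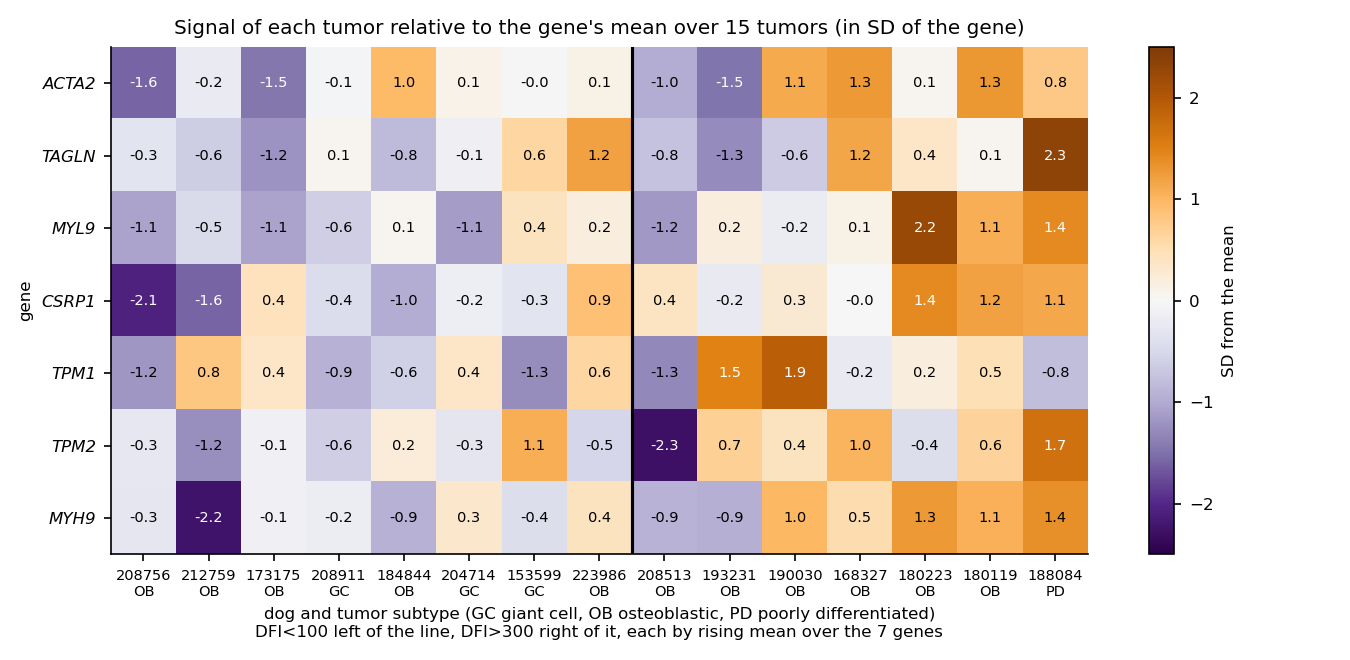
Distance of each tumor from the gene's mean over 15 tumors, in SD of that gene, for the 7 genes above background (rows) and the dogs (columns), DFI < 100 left of the line and DFI > 300 right of it, each ordered by the mean of the 7. The column of dog 188084 is high in 6 of 7 genes, and dog 208513 has the lowest mean of all 15.

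To place the group beside the whole array, the signal of every other probeset was regressed on that of ACTA2 with limma. Of 42859 probesets 2 passed an adjusted p of 0.05 (0.00467%). One is shared by ACTA1 and ACTA2 (r of 0.97, adjusted p of 3.9e-05) and the other is annotated to ACTA1, the skeletal muscle actin (r of 0.96, adjusted p of 0.00014). The ACTA1 probeset ran from 5.73 to 9.09 over the 15 tumors, while 9 of the 11 skeletal muscle genes measured were near background and their median r with ACTA2 was -0.11. How much of the ACTA1 signal is ACTA2 transcript on similar probes was not tested. None of the other 9 genes of the group passed the adjusted p. Of their brightest probesets TAGLN alone, with r of 0.50 and p of 0.0439 in limma, had an unadjusted p under 0.05 in the positive direction, where 5.72% of all probesets did. The p of TAGLN was up to 0.1145 in limma when 1 dog was left out. The other 2 TAGLN probesets had r of 0.40 each with a limma p of 0.115 each, and a further TPM2 probeset had r of 0.54 with a limma p of 0.0270.

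The genes whose signal was most like that of ACTA2 were not the other contractile genes. Among the 6447 other named genes above background, TAGLN was at rank 526 by r, MYH9 at 546, MYL9 at 554, TPM2 at 754, CSRP1 at 1071 and TPM1 at 2275. After ACTA1, the nearest were LHFPL6 with r of 0.87, LRP10 with 0.85, SYS1 with 0.84, PDIA5, a disulfide isomerase of the endoplasmic reticulum, with 0.83, UBL3 and RNF130 with 0.82 each, MINPP1 and LY96, the partner of a toll-like receptor, with 0.81 each, and KIAA1549 with 0.80. Without dogs 208756 and 193231, the farthest from the median of ACTA2, these 9 values ran from 0.67 to 0.82. They are the highest of 6447 values over the same 15 dogs, which share their arrays, and are given as a description.

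MYH9 had closer company. Its nearest genes were S100A6, a calcium-binding protein, with r of 0.91, SERPING1, the inhibitor of the first complement component, with 0.91, SFRP4, a secreted antagonist of Wnt, with 0.90, TIMP2, an inhibitor of matrix metalloproteinases, with 0.87, and CAV1, the coat protein of caveolae, with 0.85. CSRP1 stood at rank 33 for MYH9 and MYH9 at rank 5 for CSRP1. S100A6, SERPING1 and SFRP4 had r of at least 0.85 with MYH9 within each cohort. In that order r was 0.88, 0.85 and 0.90 over the DFI < 100 tumors and 0.92, 0.96 and 0.99 over the DFI > 300 tumors. These genes were taken as the highest of 6447 values over the same 15 dogs. The values within cohorts are therefore a description and no separate support. For MYH11, which was near background, the nearest were MCM3AP, WDR25, ZNF518B, HSPA13 and COA6, with r from 0.78 to 0.82. Without dogs 173175 and 180223, the farthest from the median of MYH11, these ran from 0.38 for COA6 and 0.54 for MCM3AP to 0.72 for WDR25.

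Around the group, the other genes of smooth muscle contraction and of its regulation had r with ACTA2 on both sides of 0. Over all 15114 other named genes, 6994 had r above 0 with ACTA2 and the median was -0.03. Of 14 measured genes of the contraction and calcium machinery, 7 had r above 0 with ACTA2 and their median was -0.02, and 10 were lower and 4 higher in the DFI < 100 tumors (median -0.26), with 0 of 14 at an unadjusted p under 0.05. MYL6, the essential light chain that sits beside MYL9 on myosin, was closest, with r of 0.73. Of 9 genes of SRF and its myocardin-family partners, 2 had r above 0 with ACTA2 and their median was -0.10. MYOCD itself, MRTFA and MRTFB were near background, and SRF was above it, with r of 0.26 and a cohort difference of -0.21 (standard error 0.32). MRTFA was the 1 gene of the 9 at an unadjusted p under 0.05, higher in the DFI < 100 tumors by 0.27 (limma p of 0.0489, adjusted p of 0.999), where 1.83% of all probesets were higher at that threshold.

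The non-muscle relatives of the group, among them the actin ACTG1, the calponins CNN2 and CNN3, TAGLN2 and the tropomyosins TPM3 and TPM4, gave no shared direction, with 6 of 16 lower in the DFI < 100 tumors (median 0.11) and 7 of 16 with r above 0 with ACTA2. The r with ACTA2 farthest from 0 in this list were -0.56 for CSRP2, a relative of CSRP1, and 0.51 for MYL12B. Their adjusted p in limma was 0.437 and 0.549. TAGLN and its relative TAGLN2 had r of opposite sign with ACTA2, 0.50 and -0.47, with an adjusted p in limma of 0.501 and 0.549. Of the 9 pericyte markers, 6 were near background, RGS5, CSPG4, NOTCH3, ABCC9, KCNJ8 and ANGPT1, and 6 of 9 had r above 0 with ACTA2 (median 0.23). PDGFRB, the receptor that marks pericytes and fibroblasts, had r of 0.45. Endothelial markers had r above 0 in 11 of 11 genes (median 0.38), and 7 of the 11 were above background. Osteoclast markers had r above 0 in 7 of 7 (median 0.56). Of these, 4 of 7 were above 0.5, where 5.99% of all named genes and 8.11% of those above background were. The same 4 osteoclast markers were the only ones above background. In dog 208513, with ACTA2 at 9.78, ACP5 was 1.01 and ATP6V0D2 1.09, against means of 10.29 and 8.52. The r without that dog is not given here. ACTA2 had r of 0.66 with MMP9 and 0.61 with CTSK, proteases made by osteoclasts. Of the fibroblast and myofibroblast markers 5 of 11 had r above 0 (median -0.03), from 0.71 for PDPN to -0.45 for DCN. The mean over the osteoclast list ran from 5.41 to 8.61 in the DFI < 100 tumors and from 4.25 to 8.67 in the DFI > 300 tumors, and the part of any of these cell types in the contractile signal was not tested.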

How the data were processed

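Total RNA of 15 frozen canine tumors was measured on Affymetrix Canine 2.0 arrays. The authors hybridised the arrays in 2 batches, kept RNA of high integrity and summarised probes with PLIER in Affymetrix Expression Console, with no version in the submitters' processing notes. The deposited values are intensities on the linear scale, 1 per probeset and array. The sources used here do not give the normalization before PLIER, the batch of each array or a genome build.

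Of 43035 probesets, 175 array controls were left out, and log2 was taken of the rest with no offset. Symbols came from the platform's annotation of the value table's probesets, in which 29254 probesets have 1 symbol, 439 several and 13167 are unnamed here. Cohorts come from the sample titles and subtypes from the study's table of dogs. Groups and slopes on ACTA2 were fitted with limma 3.58.1 in R 4.3.3 and adjusted by Benjamini-Hochberg over all probesets tested. The subtype fit held 4 groups on all 15 arrays, and the 1 poorly differentiated tumor added no spread. Correlations used numpy 2.4.6, with 100000 seeded permutations. The steps were tested on simulated data. One array per dog limits the precision, and the limma p-values set a difference or slope against the spread between dogs. The 10 genes, the lists around them and the tests were chosen with earlier results of these data known.

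The text names the 10 genes, up to 4 genes of each other list by smallest p or highest r with ACTA2, and the nearest genes to ACTA2 (10), MYH11 (5) and MYH9 (5); MRTFA, MRTFB, MYOCD, SRF, ACTG1, CNN2, CNN3, TPM3, TPM4 and the pericyte markers near background were named after their values were seen, and so were MYH9 among the nearest genes to CSRP1 and DCN and TAGLN2. Alternatives were the methods' t-test, a trend and robust fit, 16 added before log2, quantile normalization, a filter at the median, array weights, age or the 3 prime to 5 prime ratio as covariate, the osteoblastic tumors alone, the dogs other than Greyhounds, leaving out 1 dog at a time, and averaging a gene's probesets. Splits and a covariate by the hybridisation controls, and the correlations without dogs 188084 and 153599, and the alternatives within osteoblastic tumors were added after seeing the data. No sequence, promoter or position is given, as no sequence table or build was used here.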

Additional observations from a re-analysis of the deposited data

Results flagged for a closer look

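In 20 groups, the 10 genes in each of the 2 cohorts, the tumor farthest out was compared with the group's range by Dixon's criterion, which chance meets in about 1 of 20 groups; 4 tumors met it. For CNN1 in the DFI < 100 cohort, dog 153599 lay at 9.13 and the next tumor at 5.95, a gap of 0.911 of the range. For CNN1 in the DFI > 300 cohort, dog 188084 lay at 10.95 and the next tumor at 5.88, a gap of 0.85 of the range. Both dogs were also the 2 highest on the second CNN1 probeset and for TPM2. For LMOD1, dog 204714 of the DFI < 100 cohort lay at -7.29 with the next tumor at 0.80, a gap of 0.846, and dog 190030 of the DFI > 300 cohort lay at -8.59 with the next at 0.48, a gap of 0.837. All LMOD1 values are far under the background level, where log2 of a very small intensity spreads widely.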

How the results depend on the processing

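No value of the 10 genes passed an adjusted p of 0.05 under any alternative run; the smallest was 0.941 for the cohort difference, 0.733 within osteoblastic tumors, 0.798 for the subtype and 0.313 for the slope on ACTA2. Over the whole array the cohort count of 0 became 1 on the arrays with low hybridisation controls, 2 on those with high controls and 2 without Greyhounds. The subtype count of 1 became 5 with the methods' t-test and 0 with 16 added before log2 or quantile normalization. The count of 2 probesets that follow ACTA2 became 4 with the hybridisation controls as covariate. The median r of 0.46 became 0.17 over the DFI < 100 tumors, 0.36 with the mean of a gene's probesets and 0.65 on the arrays with high controls. The causes were not tested.

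The cohort difference changed sign on the arrays with low controls for TAGLN (0.057), CNN1 (1.33) and TPM2 (0.19), and on those with high controls for TPM1 (0.13) and LMOD1 (-1.99). It did so for CNN1 in osteoblastic tumors (0.13), without Greyhounds (0.022) and with averaged probesets (0.068), for MYH11 with averaged probesets (1.19), and for LMOD1 with 16 added (-0.016) or age as covariate (-1.21). The subtype difference of MYL9 was -0.021 after quantile normalization.

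With each dog left out in turn, the subtype count ran from 1 to 12 (12 without dog 153599), the count within osteoblastic tumors from 0 to 1, and the count that follows ACTA2 from 2 to 11 (11 without dog 208513). The cohort difference ran from -0.61 to 0.029 for TAGLN, -0.60 to 0.57 for CNN1 and -1.25 to 1.30 for LMOD1. Within osteoblastic tumors it ran from -0.60 to 0.10 for TAGLN, -0.0077 to 0.17 for CNN1 and -0.15 to 2.02 for LMOD1. The subtype difference ran from -0.32 to 0.30 for MYL9, -0.085 to 0.85 for TPM2 and -4.63 to 0.15 for LMOD1, and the slope on ACTA2 from -0.0004 to 0.24 for MYH11 and -0.011 to 0.092 for TPM1. Signal near background limits CNN1, MYH11 and LMOD1. No paired analysis applies, because each array is of a different dog and each dog belongs to 1 cohort only.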
